A study of Mus musculus with 5 samples.

Results

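The neonatal mouse growth plate preparation held a small population of cells chosen for transcripts of both Cilp and Thbs4, with limits on other genes. It numbered 949 of the 82516 cells kept, or 1.15%. Without the limits on other genes, 2942 cells passed. Cilp encodes cartilage intermediate layer protein, and Thbs4 encodes thrombospondin-4, a matrix glycoprotein of tendon and muscle attachments. The cells were chosen by measured values. Each held at least 2 unique molecular identifiers (UMIs, counts of single captured transcripts) of Cilp and at least 2 of Thbs4. Cells with 3 or more UMIs of Tnmd (tenomodulin, a tendon marker), with 50 or more Prg4 (lubricin) UMIs per 10000 UMIs, with 3 or more UMIs of Ihh (Indian hedgehog), or with 3 or more of Mki67 and Top2a together (cell division genes) were left out. Because these 7 genes selected the cells, their levels are given as a description and were not tested between sets of cells. They were kept in the fit between genotypes, and nothing is read from them there. The working name of the population was fibrocartilage-like. Type II collagen transcripts were near the level of free RNA in most of these cells (per-cell levels follow), so they are called Cilp and Thbs4 positive cells here.

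The cells came from 5 littermate pups labelled C57BL/6J (the methods give the Col2a1-Cre line as B6;SJL), with 1 BD Rhapsody single-cell library per pup. The growth plates were cut from knees after tendon, ligament and other adhering tissue had been dissected and digested away, so the Cilp and Thbs4 positive and Tnmd-positive cells are those left after this step. Pups 1 and 2 were WT, and pups 3, 4 and 5 carried the conditional Trpv4 p.R594H allele, which encodes an activated calcium channel, with Col2a1-Cre. The labels gave the age as postnatal day 5, and the methods gave postnatal day 3. Col2a1-Cre recombines the allele in cells that use the Col2a1 promoter and in their descendants, and neither Cre activity nor the Trpv4 allele can be read from these counts. The p-values below measure the spread between single pups. Xist was detected in the cells of pups 3 and 4 only and Ddx3y in those of pups 1, 2 and 5 only, so genotype label and sex were not balanced.

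Fibrocartilage lies where tendon, ligament or joint capsule meets cartilage, and in the meniscus. Its cells are known to make type I collagen together with aggrecan and other cartilage matrix components. Cilp, Tnc (tenascin-C, a matrix protein of load-bearing connective tissue), Thbs4, Aqp1 (a water channel) and Dkk3 (a secreted protein of the Dickkopf family) are genes of such tissues, and the last 3 of the marker genes Cilp, Thbs4, Tnc, Aqp1 and Dkk3 played no part in choosing the cells.

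Cilp lies on chromosome 9 at 65265180-65280605, plus strand, and Thbs4 on chromosome 13 at 92751590-92794818, minus strand (GENCODE M21, GRCm38, which is the mm10 build named in the submitters' processing notes). The 250 bases before the start of each are shown because transcripts of these genes defined the cells. They are RefSeq sequence on GRCm38.p6, read 5′ to 3′ on the strand of the gene, from chr9:65264930-65265179 for Cilp and chr13:92794819-92795068 for Thbs4. Capitals mark E-boxes (CANNTG, the same on both strands), the letters that basic helix-loop-helix factors such as scleraxis are known to bind.
Cilp: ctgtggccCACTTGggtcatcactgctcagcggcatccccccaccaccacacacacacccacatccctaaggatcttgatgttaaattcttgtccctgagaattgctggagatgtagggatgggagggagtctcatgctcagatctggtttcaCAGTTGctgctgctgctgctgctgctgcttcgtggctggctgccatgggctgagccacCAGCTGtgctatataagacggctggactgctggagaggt
Thbs4: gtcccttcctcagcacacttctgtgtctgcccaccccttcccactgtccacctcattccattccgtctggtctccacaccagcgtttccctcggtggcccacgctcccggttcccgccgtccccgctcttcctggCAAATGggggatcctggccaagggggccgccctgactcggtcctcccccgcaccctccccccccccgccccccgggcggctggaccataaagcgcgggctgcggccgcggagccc
The Cilp stretch held 3 E-boxes and the Thbs4 stretch 1, and 66.2% of the 32851 stretches of the same length before other starts held at least 1. A TATAA match on either strand was present once before Cilp and not before Thbs4, against 22.8% of all stretches. Neither stretch matched the AP-1 letters TGANTCA (6.75% of all stretches) or the SOX letters AACAAT (9.42%) on either strand. Of the 5 marker genes, 4 had an entry in the table used, and Dkk3 did not.

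The selected cells numbered 193 and 203 in WT pups 1 and 2 and 235, 176 and 142 in mutant pups 3, 4 and 5. All 5 libraries contributed, with a median depth per selected cell of 6979, 7218, 6103, 4812.5 and 6082.5 UMIs in the same order. The median over all kept cells was 7323 UMIs, against 6214 in the selected cells. Library totals ran from 117746735 to 183322632 UMIs. Of the 10 pairs of pups, each shared between 3 and 7 cell barcode numbers, and no number was shared by 2 selected cells. Doublets were not called in these data.

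At least 2 Cilp UMIs were found in 5637 kept cells and at least 2 Thbs4 UMIs in 18374, and both in 2942. Of the 2942, Tnmd removed 1180, Prg4 738, cell division genes 352 and Ihh 5, with some cells failing more than 1 of these. In the selected cells Cilp ran from 2 to 136 UMIs with a median of 6, and Thbs4 from 2 to 80 UMIs with a median of 9. Exactly 2 Cilp UMIs were counted in 153 cells, exactly 2 Thbs4 UMIs in 96 and exactly 2 of both in 19, so most of the cells lay inside the limits. Just outside, 308 cells held 1 Cilp UMI with at least 2 of Thbs4, and 151 held 1 Thbs4 UMI with at least 2 of Cilp. Tnc, which the limits did not use, was at 2442 UMIs per 1000000 (CPM) over the 582 cells with at least 4 UMIs of both genes and at 775 CPM over the 19 cells at exactly 2. It was at 1553 CPM over the 308 cells with 1 Cilp UMI and at 970 CPM over the 4445 cells with Thbs4 alone. Macrophages (at least 10 C1q UMIs), which should lack both genes, give the level of free RNA: 2 of 684 passed the limits for both (0.292%, exact 95% binomial interval 0.0354% to 1.05%, covering counting error only), at a median of 8802 UMIs. Of endothelial cells (at least 2 UMIs each of Cdh5 and Pecam1) 3 of 574 passed (0.523%, exact 95% binomial interval 0.108% to 1.52%). How many of the selected cells passed through free RNA was not tested.

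A total of 3 sets of cells from the same pups were compared with them. They were the 13772 cells with at least 3 Tnmd UMIs and under 3 of Mki67 and Top2a together (Tnmd-positive cells), the 2149 cells with at least 50 Prg4 and under 200 Col2a1 UMIs per 10000 (Prg4-high cells, the gene of the joint surface), and the 20573 cells with at least 20 Ucma and at least 200 Col2a1 UMIs per 10000 (Ucma-high cells, the genes of resting chondrocytes). Prg4-high cells also passed the limits for Tnmd, Ihh and cell division genes given above, and Ucma-high cells those and the limit for Prg4. Cilp and Thbs4 positive cells were left out of the Ucma-high set, so by construction none of its cells passed the limits for both genes. At least 2 UMIs of both Cilp and Thbs4 were also held by 1034 of the Tnmd-positive cells (7.51%) and 242 of the Prg4-high cells (11.3%). UMIs were summed per pup and set, and the sums were tested with the pup as a block by edgeR's quasi-likelihood test with Benjamini-Hochberg adjustment. Genes used to choose either set were left out of every count. Of all genes tested, 10.8% were called higher and 11.9% lower than in Tnmd-positive cells, 12.4% and 10.9% than in Prg4-high cells, and 20.8% and 24.4% than in Ucma-high cells, and the list counts that follow are to be read against these shares. Fewer transcripts per cell and fewer cells with transcripts cannot be told apart in a sum.

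The 3 marker genes that had not chosen the cells were higher in the Cilp and Thbs4 positive cells than in all 3 other sets, in every pup. They had been listed as markers of this population with earlier results of these data known. Their rise is therefore a description and not independent support for the choice of cells. Tnc was at 2527, 1911, 1885, 2430 and 2281 CPM in pups 1 to 5, against 771, 859, 936, 721 and 879 CPM in Tnmd-positive cells and 962, 822, 900, 1057 and 1046 CPM in Prg4-high cells. The lowest of its 5 values in the Cilp and Thbs4 positive cells was above the highest in either set. Its log2 fold change was 1.13 (SE 0.13, adjusted p = 0.0036) over Tnmd-positive, 1.40 (SE 0.06, adjusted p = 1.5e-16) over Prg4-high and 2.92 (SE 0.19, adjusted p = 0.00032) over Ucma-high cells, each by edgeR.

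Aqp1 was at 719, 650, 653, 747 and 576 CPM in pups 1 to 5. In Tnmd-positive cells it was between 322 and 459 CPM, in Prg4-high cells between 323 and 472 CPM and in Ucma-high cells between 13.4 and 27.3 CPM. The 5 values of the Cilp and Thbs4 positive cells overlapped with none of these ranges, and the log2 fold changes by edgeR were 0.58 (SE 0.08, adjusted p = 0.00039), 0.88 (SE 0.07, adjusted p = 6.0e-11) and 4.92 (SE 0.17, adjusted p = 4.2e-06) in the same order. After each cell was thinned to 3000 UMIs, Aqp1 was detected in 65.8% of 906 Cilp and Thbs4 positive cells, against 54.1% of Tnmd-positive, 46.8% of Prg4-high and 3.77% of Ucma-high cells. Without thinning it was detected in 76.6%, 71.8%, 55.2% and 8.23% of cells. The order of the 4 sets was the same with and without thinning.

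Dkk3 was at 884, 653, 715, 700 and 716 CPM in pups 1 to 5, and between 461 and 551 CPM in Tnmd-positive, 378 and 471 CPM in Prg4-high and 21.8 and 33.5 CPM in Ucma-high cells. The values again did not overlap. The difference from Tnmd-positive cells was small, at a log2 fold change of 0.30 (SE 0.09, adjusted p = 0.035 by edgeR), and was no longer called without mutant pup 4 (0.32) or without mutant pup 5 (0.29). Over Prg4-high cells it was 1.02 (SE 0.07, adjusted p = 3.1e-12) and over Ucma-high cells 4.58 (SE 0.12, adjusted p = 3.2e-09), by edgeR.

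**Figure D1:**
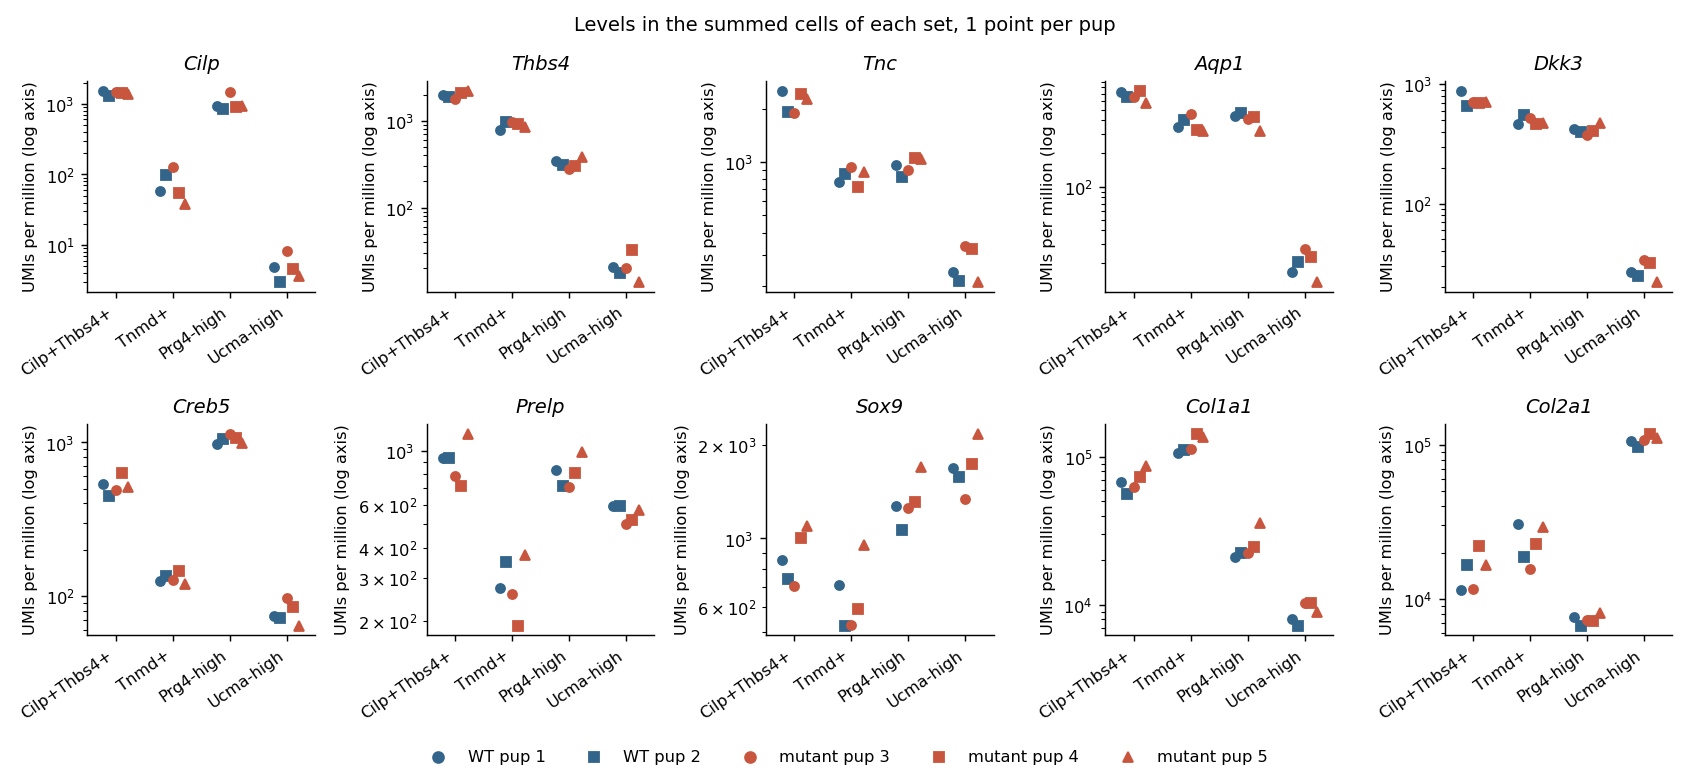
UMIs per 1000000 UMIs (CPM) on a log axis for 10 genes in the summed cells of the Cilp and Thbs4 positive, Tnmd-positive, Prg4-high and Ucma-high sets, with 1 point per pup (blue WT, red mutant). Cilp and Thbs4 chose the first set and Col2a1 was used for the last 2; Tnc, Aqp1 and Dkk3 are highest in the first set in all 5 pups, Creb5 in Prg4-high cells, and Col1a1 in Tnmd-positive cells.

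Type I and type II collagen transcripts were unequally spread over the Cilp and Thbs4 positive cells. Col1a1, the main collagen of tendon, bone and fibrous tissue, had a median of 605 UMIs per 10000 in a cell, against 8.54 in macrophages. Col2a1, the main collagen of cartilage, had a median of 11.1 UMIs per 10000, against 5.92 in macrophages, where it is taken as free RNA. The median was between 8.09 and 13.4 in every pup. By this measure 752 cells (79.2%) held under 100 Col2a1 UMIs per 10000, 35 held 100 to under 200, and 162 (17.1%) held 200 or more. The last class held 27 and 37 cells of WT pups 1 and 2 and 33, 40 and 25 cells of mutant pups 3, 4 and 5, the largest share being 22.7% in pup 4. Its median depth was 7687 UMIs, against 5914 in the cells under 100. Whether doublets contribute to these 162 cells was not tested.

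The 162 cells with much Col2a1 also differed in other genes, given as pooled levels with no test. Cilp, a gene of the rule, was at 880 CPM in them and at 1586 CPM in the 752 cells with little Col2a1. Tnc was at 1094 and 2512 CPM and Postn (periostin) at 633 and 1974 CPM. In the other direction, Acan (aggrecan, the large cartilage proteoglycan) was at 3411 and 919 CPM, Hapln1 (the link protein that binds it to hyaluronan) at 3500 and 724 CPM, Col9a1 (type IX collagen) at 6822 and 221 CPM and Matn1 (matrilin-1) at 1874 and 28.8 CPM.

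Other cartilage genes differed in how far their medians lay above those of macrophages. Sox9, the transcription factor that drives chondrogenesis, had a median of 4.88 UMIs per 10000 (0 in macrophages), Acan 9.19 (0.211), Hapln1 7.40 (0) and Prelp, a leucine-rich matrix protein of cartilage and tendon, 6.21 (0). The share of the cells above the 95th percentile of macrophages was 70.8% for Prelp, 44.8% for Sox9, 38.4% for Hapln1 and 29.0% for Acan, so of these 4 genes only Prelp passed it in most cells. In the same order it was 30.0%, 26.7%, 17.2% and 25.2% of Tnmd-positive cells and 57.2%, 74.4%, 96.0% and 95.6% of Ucma-high cells. Col9a1 had a median of 1.79 (0 in macrophages) with 6.53% of the cells above that percentile, and Matn1 a median of 0 with 5.80%. For Col2a1 10.9% of the cells were above it. The percentile itself was 451.7 UMIs per 10000 for Col2a1 and 56.1 for Col9a1, far above the macrophage medians of 5.92 and 0. Some cells of the macrophage set thus held many transcripts of these 2 genes. A cell below the percentile is therefore not shown to be at the level of free RNA. After thinning to 3000 UMIs, Sox9 was detected in 69.2% of 906 cells and Scx (scleraxis, the transcription factor of tendon progenitors) in 6.95%. Both were detected together in 44 cells, or 4.86%, from 2 in mutant pup 4 to 13 in WT pup 1. Postn was detected in 83.9% of the thinned cells and Creb5, a transcription factor of the joint surface, in 68.2%.

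Within a pup, the cells varied along these same genes. As a description across cells of 1 library, with no test, the Spearman correlation of Col2a1 with Hapln1 had a median over the 5 pups of 0.57 (range 0.37 to 0.61), and that of Hapln1 with Acan 0.59 (0.48 to 0.61). Col3a1 (type III collagen) and Postn correlated at 0.55 (0.45 to 0.62). Creb5 and Postn correlated at -0.25 (-0.37 to -0.19) and Col1a1 and Col2a1 at -0.21 (-0.41 to -0.17), so the sign was the same in all 5 pups for each of these pairs. It was not for Postn and Tnc, at -0.00 (-0.08 to 0.19). The correlations were computed over the 906 cells thinned to 3000 UMIs, and the cells of a pup share their library and its free RNA.

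**Figure D2:**
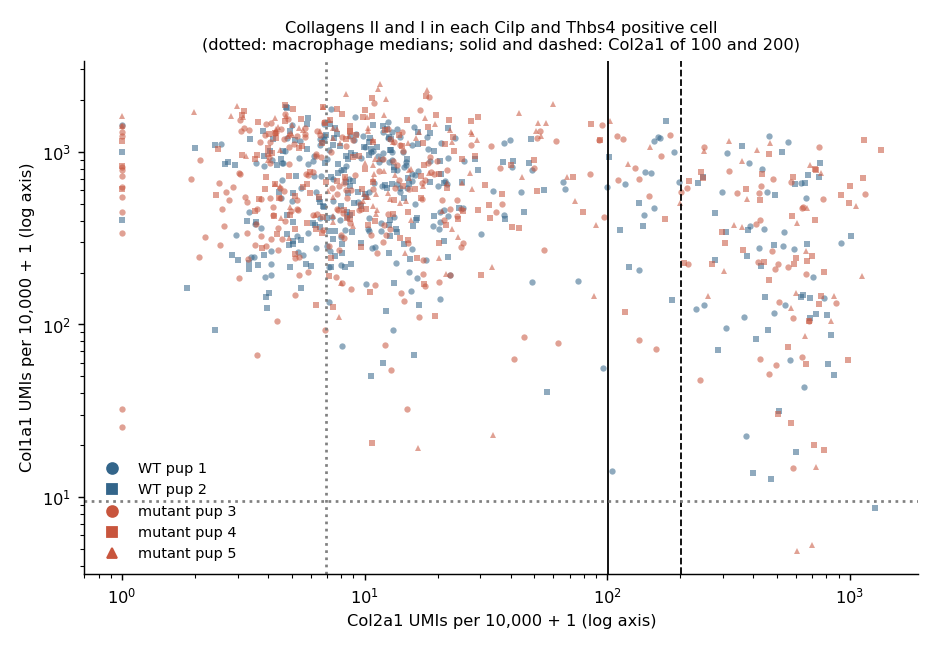
Col2a1 (horizontal) and Col1a1 (vertical) UMIs per 10000 UMIs, plus 1, on log axes in each of the 949 cells; dotted lines mark the macrophage medians and the solid and dashed lines Col2a1 levels of 100 and 200. Most cells lie left of the solid line (752) at high Col1a1, and 162 lie to the right of the dashed line, with cells of all 5 pups in both places.

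Against Tnmd-positive cells, 1390 of 12872 genes were higher in the Cilp and Thbs4 positive cells (10.8%) and 1527 lower (11.9%) by edgeR. Genes of the tendon and ligament list were mostly lower: 13 of 19 tested were lower and 4 higher, with a median log2 fold change of -0.68 against -0.02 over all genes. The sets had been split on Tnmd, itself a tendon marker, so the choice of cells set part of this difference. How large that part was in the other tendon genes was not tested. Kera (keratocan, a proteoglycan of tendon and cornea) was at 36.7, 16.0, 22.6, 41.0 and 8.40 CPM in the Cilp and Thbs4 positive cells of pups 1 to 5 and at 572, 664, 486, 995 and 361 CPM in Tnmd-positive cells, far apart in every pup, with a log2 fold change of -4.89 (SE 0.22). Mkx (Mohawk, a transcription factor of tendon) had a log2 fold change of -2.06 (SE 0.10), Thbs2 (thrombospondin-2) of -1.77 (SE 0.05), Col1a1 of -1.09 (SE 0.08) and Scx of -1.07 (SE 0.20). Scx was nevertheless at 32.2, 32.6, 25.1, 13.3 and 26.2 CPM in the 5 pups, above Prg4-high cells (4.06 to 7.80 CPM) and Ucma-high cells (2.36 to 3.60 CPM) in every pup. Col3a1 went the other way, at 0.49 (SE 0.11, adjusted p = 0.037), and this call was lost when mutant pup 4 or 5 was left out or when genes of low count were kept.

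Small leucine-rich proteoglycans, which regulate collagen fibril assembly, were also mostly lower than in Tnmd-positive cells: 10 of 13 tested were lower and 1, Prelp, was higher (median -0.57). Prelp was at 931, 929, 786, 714 and 1171 CPM against 273, 351, 258, 192 and 373 CPM, more in every pup, with a log2 fold change of 1.40 (SE 0.06, adjusted p = 1.1e-13 by edgeR). Fmod (fibromodulin), by contrast, had a log2 fold change of -0.57 (SE 0.05).

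Of the superficial and synovial list, 6 of 14 genes were higher and 5 lower than in Tnmd-positive cells (median 0.23). Has1 (hyaluronan synthase 1) was at 169, 236, 259, 203 and 166 CPM against 10.1, 24.4, 33.5, 17.7 and 15.7 CPM, a log2 fold change of 3.15 (SE 0.16). Creb5 was at 537, 445, 488, 631 and 514 CPM against 119 to 144 CPM (1.74, SE 0.06), and Erg, an ETS transcription factor of the developing joint surface, followed at 1.15 (SE 0.08). All 5 pups had the same direction for these 3 genes. Clu (clusterin), of the same list, was lower in the Cilp and Thbs4 positive cells, at 14.4 to 24.5 CPM against 39.4 to 74.3 CPM.

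Of the water, solute and pyrophosphate transport list, 4 of 10 genes were higher than in Tnmd-positive cells (Enpp1, Ank, Slc20a1 and Aqp1), 1 was lower and 5 were not called. Enpp1, the enzyme that makes extracellular pyrophosphate from ATP, was at 699, 514, 551, 633 and 686 CPM against 137 to 193 CPM, with a log2 fold change of 1.64 (SE 0.06), and was also higher than in Prg4-high (0.70, SE 0.07) and Ucma-high cells (1.86, SE 0.06). Ank, which exports ATP and pyrophosphate, was at 0.81 (SE 0.07) over Tnmd-positive cells. Against Ucma-high cells 3 of 10 genes of the list were higher and 4 lower, where 20.8% and 24.4% of all genes were.

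Of the cartilage matrix list 3 of 20 genes were higher than in Tnmd-positive cells and 3 lower, near the shares of all genes (10.8% and 11.9%), with 16 of the 20 below 0 (median -0.46), a count that rose to 4 higher and 13 lower when cells with at least 3 UMIs of markers of other cell types were left out of both sets. With both sets limited to under 100 Col2a1 UMIs per 10000 it was 5 higher and 8 lower. Of the enthesis and meniscus list 3 of 16 genes were higher and 6 lower than in Tnmd-positive cells, 5 of 15 higher and 4 lower than in Prg4-high cells (12.4% and 10.9% of all genes), and 8 of 16 higher and 6 lower than in Ucma-high cells (20.8% and 24.4% of all genes).

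The 10 genes with the largest rise over Tnmd-positive cells, under the naming rule, were Cd34 (a surface sialomucin of stromal progenitors and endothelium), Has1, Cyfip2, Vit (vitrin), Cytl1 (a cytokine-like protein of cartilage), Col5a3 (a type V collagen chain), Mfap5 (a microfibril protein), Capg, Anxa8 and Gprc5a, at log2 fold changes from 2.25 to 3.43. Cd34 was at 378, 454, 409, 330 and 327 CPM against 16.6 to 47.9 CPM, while the endothelial list summed to 15.7 CPM in the cells. The 10 with the largest fall were Kera, Enpp2 (autotaxin), Sema3b, Cpz, Npnt (nephronectin), Epha3, Piezo2 (a mechanosensitive channel), Tspan7, Mfap4 and Sfrp2 (a Wnt antagonist), from -4.89 to -2.48.

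Genes of the dissociation response list, immediate early and heat shock genes that tissue digestion is known to induce, differed too: 13 of 19 were lower and none higher than in Tnmd-positive cells (median -0.78). Fos had a log2 fold change of -1.07 (SE 0.06). Against Prg4-high cells 8 of the 19 were higher and 1 lower (12.4% and 10.9% of all genes). The part of this list in the other differences was not tested.

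Against Prg4-high cells, 1265 of 10173 genes were higher in the Cilp and Thbs4 positive cells (12.4%) and 1105 lower (10.9%) by edgeR. DESeq2 called fewer, 754 higher and 507 lower. The fibrous matrix genes were higher. Of the tendon and ligament list 16 of 18 genes were higher and none lower (median 1.15 against -0.01 over all genes). The Cilp and Thbs4 positive cells were chosen for Thbs4, a gene of tendon attachments, and 21.1% of Prg4-high cells passed that limit. The choice of cells may therefore have set part of this difference, which was not tested. Of the perichondrial list, genes of the fibrous layer around cartilage, 12 of 17 were higher and 2 lower (median 1.04). Col1a1 was at 67761, 56021, 62740, 72835 and 86533 CPM against 21182 to 35842 CPM (1.66, SE 0.06). Postn was at 1435, 1915, 1667, 1468 and 1536 CPM against 406 to 473 CPM (2.07, SE 0.07), Col3a1 followed at 1.89 (SE 0.06), Scx at 2.50 (SE 0.23), and Tnn (tenascin-N) at 2.52 (SE 0.13). Cilp2, the paralog of Cilp, was at 1.07 (SE 0.10), and how reads were split between the paralogs was not given in the sources used here.

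Of the superficial and synovial list 6 of 14 genes were lower than in Prg4-high cells, 2 higher and 6 not called (median -0.23). The sets had been split on Prg4, itself a gene of the joint surface, so the choice of cells set part of this difference. How large that part was in the other genes of the joint surface was not tested. Of the chondrogenic factors 7 of 10 were lower and 2 higher (median -0.34). Creb5 had a log2 fold change of -0.81 (SE 0.08), Erg of -0.51 (SE 0.07), Clu of -2.45 (SE 0.12), Sox9 of -0.39 (SE 0.07) and Hhip, which binds hedgehog proteins, of -2.49 (SE 0.19). Creb5 thus lay between the Tnmd-positive and the Prg4-high cells in all 5 pups. The Sox9 call was lost without the block on the pup.

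The cartilage matrix list gave a count that depended on which cells were used. Against Prg4-high cells, 12 of 19 genes were higher and 2 lower (median 0.89). Prg4-high cells had been limited to under 200 Col2a1 UMIs per 10000, and the other set had not. With both sets limited to under 100, a limit chosen after the data were seen, 3 of 18 genes were higher and 10 lower (median -0.41). Matn1 turned from 3.53 (SE 0.35) to -0.18 and Matn3 from 2.85 (SE 0.32) to -0.16, and Epyc (epiphycan) went from 3.09 (SE 0.14) to 0.66, no longer called. Without cells bearing markers of other types, 7 of 19 cartilage genes were higher and 3 lower (median 0.31), and in thinned cells 9 of 18 and 3 (median 0.30). The tendon and ligament count kept its direction under the Col2a1 limit, at 17 higher and none lower of 18.

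Under the naming rule, the 10 genes with the largest rise over Prg4-high cells were Mfap5, Meox1 (a homeobox transcription factor), C1qtnf3, Matn1, Mfap4, Lpl (lipoprotein lipase), Epyc, Igfbp2, Matn3 and Lama2 (a laminin chain), from 2.69 to 4.54. Those with the largest fall were Msmp, Clic5, Calb2 (calretinin), Stc1 (stanniocalcin-1), Bpifb1, Rab37, Dcx, Npnt, Htra4 and F13a1 (coagulation factor XIII A), from -7.37 to -3.10. Msmp was at 0.644, 1.14, 1.88, 4.10 and 0 CPM in the Cilp and Thbs4 positive cells and at 111, 233, 440, 112 and 616 CPM in Prg4-high cells. Meox1 was at 70.2 to 79.9 CPM against 3.93 to 5.86 CPM, while in Tnmd-positive cells it was at 47.6 to 63.2 CPM. Its 5 values lay apart from those of either set.

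Against Ucma-high cells, 3187 of 15290 genes were higher (20.8%) and 3726 lower (24.4%) by edgeR. Cartilage matrix genes were lower: 16 of 18 tested were lower and 1 higher, with a median log2 fold change of -2.75 against -0.07 over all genes. Acan was at 1356, 1733, 1177, 1695 and 1855 CPM against 4298 to 5739 CPM (-1.84, SE 0.12), Hapln1 followed at -1.49 (SE 0.13) and Comp (cartilage oligomeric matrix protein) at -0.69 (SE 0.06). The 1 gene that was higher was Prelp, at 0.53 (SE 0.07). Sox9 was lower, at 702 to 1100 CPM against 1338 to 2173 CPM (-1.12, SE 0.05). With only the Cilp and Thbs4 positive cells limited to under 100 Col2a1 UMIs per 10000, the same numbers of cartilage genes were called and the median was -5.01. Ucma-high cells were chosen for much Col2a1 and could not be limited in this way. The limits therefore set part of both medians, and this version is not a check with matched sets.

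Most genes of the fibrous tissue lists were higher than in Ucma-high cells. Of the perichondrial list 15 of 17 were higher and 1 lower (median 2.70), and of the tendon and ligament list 15 of 19 and 2 (median 2.09). Of the minor fibrillar and beaded collagens 13 of 15 were higher and 2 lower (median 1.83), and of the superficial and synovial list 9 of 15 and 5 (median 2.42). The Thbs4 limit was passed by 2.86% of Ucma-high cells, so the choice of cells may have set part of the tendon difference here too. Of 43 TGF-β and BMP genes 22 were higher and 13 lower (median 0.40), among them Bmp4, a bone morphogenetic protein ligand, at 40.0 to 73.5 CPM against 5.15 to 7.68 CPM (3.19, SE 0.14). Of 11 Wnt antagonists 3 were higher and 6 lower (median -1.03). Postn had a log2 fold change of 3.72 (SE 0.17) and Creb5 of 2.58 (SE 0.08). Against Tnmd-positive cells Postn was instead called lower, a call lost without WT pup 1 (log2 fold change -0.62). Of the perichondrial list 7 of 17 genes were higher and 6 lower than in Tnmd-positive cells (median -0.13). Against Tnmd-positive cells 7 of 42 TGF-β and BMP genes were higher and 10 lower (10.8% and 11.9% of all genes), and against Prg4-high cells 8 of 40 and 11 (12.4% and 10.9%).

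The largest rises over Ucma-high cells under the naming rule were those of Meox1, Cd34, Spon2, Itih5 (a hyaluronan-binding inhibitor chain), Igfbp2, Mfap5, Aqp1, Sod3 (extracellular superoxide dismutase), Col5a3 and Dkk3, from 4.58 to 5.69. The largest falls were those of Sfrp5, A2m, Pou3f3, Calml3, Chil1, Matn1, Serpina3n, Scube3, Col9a1 and Mia, from -4.21 to -3.15. Meox1, Cd34, Mfap5, Igfbp2 and Col5a3 stood among the largest rises of more than 1 of the 3 comparisons, which share the same sums of Cilp and Thbs4 positive cells.

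**Figure D3:**
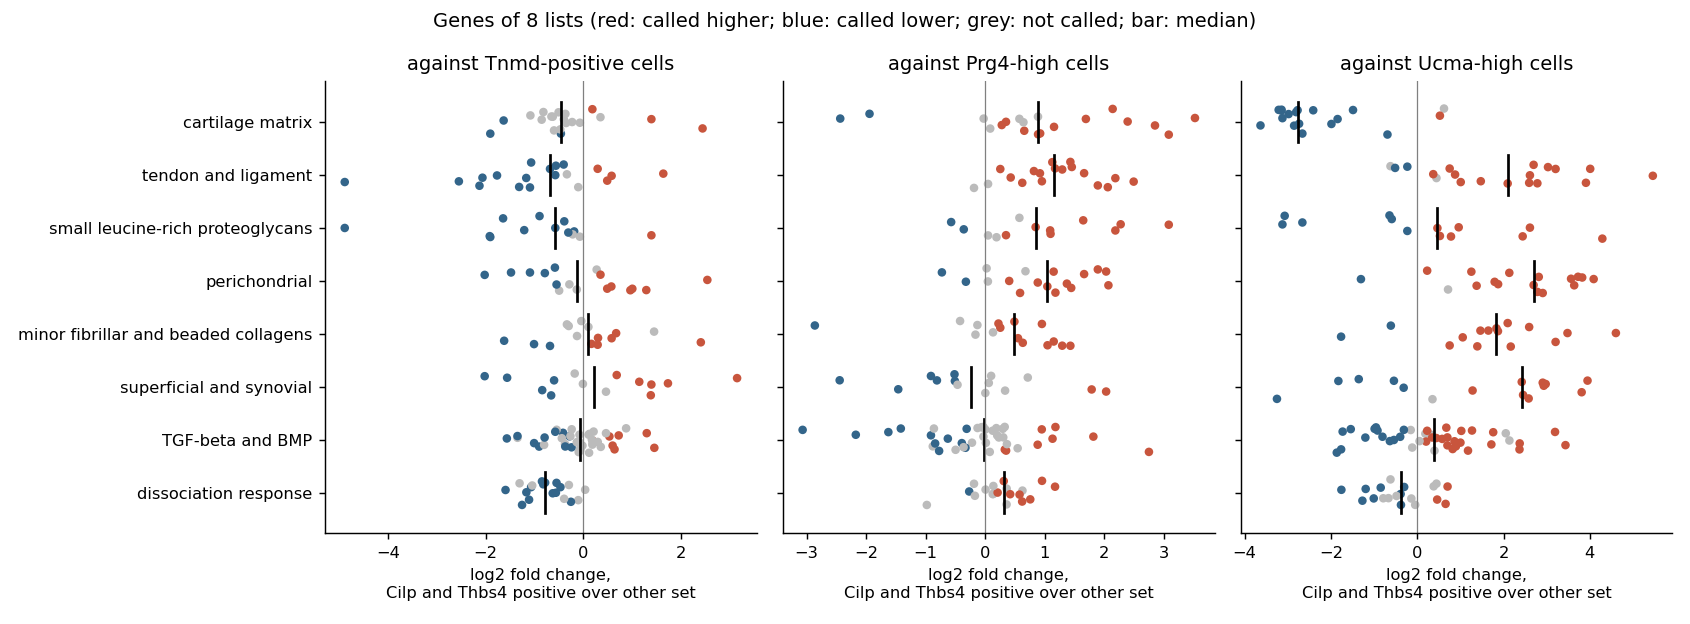
Log2 fold change (horizontal) of every tested gene of 8 lists between the Cilp and Thbs4 positive cells and each of the 3 other sets, with genes called higher in red, called lower in blue and not called in grey, and the list median as a bar. Tendon and ligament genes lie mostly left of 0 against Tnmd-positive cells (13 of 19 lower) and right of 0 against Prg4-high cells (16 of 18 higher), and cartilage matrix genes lie left of 0 against Ucma-high cells (16 of 18 lower). The Tnmd limit set part of the first of these differences, and the Col2a1 limit of Ucma-high cells part of the last. The Thbs4 limit may have set part of the second, which was not tested.

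Likeness to Cilp and Thbs4 was measured by the Spearman correlation of levels over 35 profiles, 7 sets of cells in 5 pups, among 6274 genes, as a description with no test. The profiles share pups and libraries, and 5 of them are the sums of cells chosen for Cilp and Thbs4, so the rule set part of these values. The genes nearest to Cilp were Pcsk5 (0.90), Ano1 (0.90), Aldh1a3 (0.89), H13 (0.88) and Angptl1 (0.88). Those nearest to Thbs4 were Dkk3 (0.95), Ssc5d (0.92), Spon2 (0.91), Htra1 (0.89) and Fat4 (0.88). No gene was among the 5 nearest of both.

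Markers of other cell types were counted in the Cilp and Thbs4 positive cells. C1qb was at 0 in all of them, the 8 macrophage genes summed to between 1.03 and 19.5 CPM per pup, the 7 endothelial genes to between 3.87 and 41.5 CPM the 9 muscle genes to between 10.9 and 14.7 CPM and the 6 Schwann cell genes to between 61.2 and 106 CPM. The 6 erythroid genes summed to 931 CPM in WT pup 2 and 1419 CPM in mutant pup 3, carried by 7 and 3 cells, and to between 7.35 and 20.6 CPM in the other pups, and in pup 3 the sum was above that of all its cells (866 CPM). Of 7 pericyte genes 6 were higher than in Ucma-high cells and none lower (median 1.86). Against Tnmd-positive cells 1 of 7 was higher and 2 lower (median 0.31), and against Prg4-high cells 2 of 6 and 1 (median 0.82). At least 3 UMIs of the markers of any of 5 such types were found in 82 cells (8.64%), of which 57 were by the Schwann cell list. By that list they were 6.01% of the Cilp and Thbs4 positive cells, against 20.2% of all kept cells. The list is thus not particular to Schwann cells, and cells left out above for such markers need not be of other types.

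The share of Cilp and Thbs4 positive cells did not separate the genotypes by the test. It was 1.28% and 1.23% of kept cells in WT pups 1 and 2 and 1.23%, 0.984% and 1.03% in mutant pups 3, 4 and 5, so pup 3 lay inside the WT range. The means were 1.25% ± 0.0358 (SD, n = 2) and 1.08% ± 0.130 (SD, n = 3), a difference of -0.171 percentage points (2-sided exact permutation test, p = 0.3 over 10 groupings, of which the smallest possible p is 0.1). With at least 3 UMIs of each gene, all 3 mutant values (0.873%, 0.721% and 0.775%) were below both WT values (1.05% and 0.948%), at that smallest p of 0.1 by the exact permutation test. As a share of cells other than macrophages, endothelial and erythroid cells it was 1.30% and 1.26% in WT and 1.25%, 0.995% and 1.04% in mutant pups, again with no overlap (exact permutation p = 0.2). With every cell thinned to 3000 UMIs and at least 1 UMI of each gene required, the shares were 1.34% and 1.27% in WT and 1.39%, 1.13% and 1.09% in mutant pups (exact permutation p = 0.5), and the groups overlapped. The mutant libraries were the shallower ones: of the 2303 cells under 3000 UMIs, which thinning left out, 691, 1162 and 429 came from mutant pups 3, 4 and 5, 21 from WT pup 2 and 0 from WT pup 1.

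**Figure D4:**
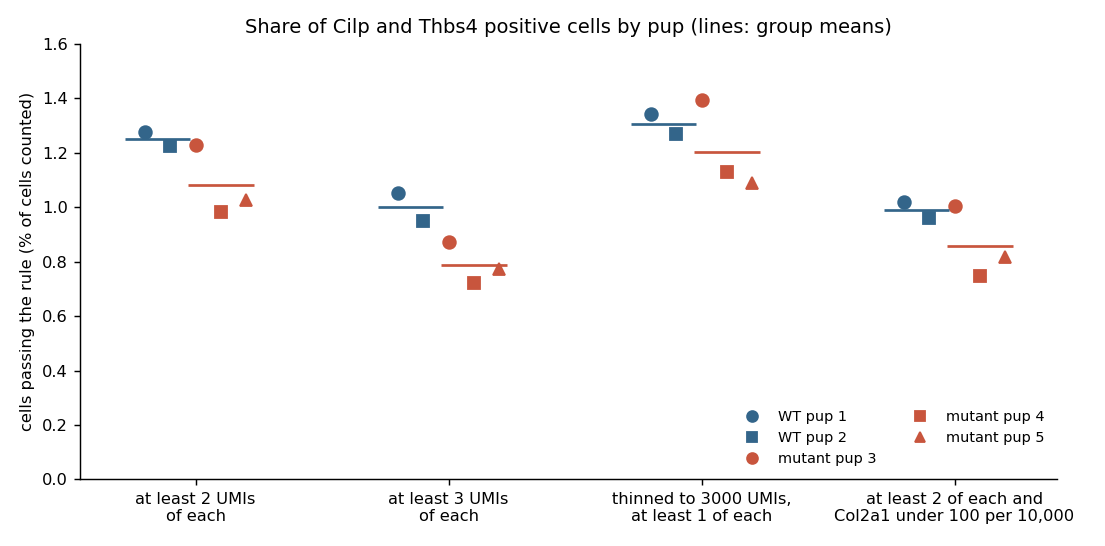
Percentage of cells counted that passed the rule (vertical, from 0) in each pup under 4 versions of the rule, with lines at the group means (blue WT, red mutant). Of the 4 versions plotted, the one with at least 3 UMIs of each gene has all mutant values below the WT values, and mutant pup 3 is the highest of the 5 after thinning.

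Between genotypes, no gene of 9461 passed the test in the Cilp and Thbs4 positive cells (0.00%). By edgeR 475 genes (5.02%) had an unadjusted p under 0.05, and DESeq2 called none at an adjusted p under 0.05. Trpv4, the gene that carries the mutation, was at 49.0 and 37.1 CPM in WT pups 1 and 2 and at 28.9, 70.8 and 53.5 CPM in mutant pups 3, 4 and 5, with the WT values inside the mutant range (log2 fold change 0.26, SE 0.39, edgeR adjusted p = 1.00). It was higher in Ucma-high cells, at 129 to 215 CPM, in every pup (-2.07, SE 0.09). After thinning, Trpv4 was detected in 9.27% of the Cilp and Thbs4 positive and 39.5% of the Ucma-high cells.

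Tnc, Aqp1 and Dkk3, whose values are given above, had log2 fold changes between genotypes of 0.04 (SE 0.16), -0.00 (SE 0.13) and -0.06 (SE 0.13), with overlapping pups in each case. Of the cartilage matrix list 17 of 20 genes were above 0 (median 0.24 against 0.00 over all genes), of the TGF-β and BMP list 29 of 39 (median 0.17), of the tendon and ligament list 11 of 17 (median 0.05) and of the perichondrial list 5 of 17 (median -0.16). Of the hypertrophic chondrocyte list 4 of 5 were above 0 (median 1.98), and the median turned to -0.76 when the WT pups were set against mutant pup 5 alone. Of the calcineurin and NFAT list, through which calcium signals to transcription, 9 of 13 were above 0 (median 0.09). None of these genes was called. The cells with much Col2a1 made up different shares of the 5 sets, as given above, and limited to under 100 Col2a1 UMIs per 10000 the cartilage median was 0.12. It was 0.34 without cells bearing markers of other types and 0.38 for the WT pups against mutant pup 5 alone.

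The 5 genes with the smallest p and a mean of at least 20 CPM were Rgs16, Notch3, Hs6st2, Rgs5 and Rps19, none of them called. Rgs5, a regulator of G-protein signalling known from pericytes, was at 141 and 137 CPM in WT pups 1 and 2 and at 77.3, 55.4 and 33.6 CPM in mutant pups 3, 4 and 5 (log2 fold change -1.24, SE 0.23, edgeR adjusted p = 0.34). Notch3, a Notch receptor of vascular smooth muscle, was at 37.4 and 37.1 CPM in WT and 18.2, 5.13 and 13.6 CPM in mutant pups (-1.46, SE 0.31, edgeR adjusted p = 0.34). The groups did not overlap in either gene, both of which were picked for their small p, and the share of all tested genes without overlap was not counted. Abcc9, also of the pericyte list, was at -1.15 (SE 0.39, edgeR adjusted p = 0.96) and Acta2 (smooth muscle actin) at -2.25 (SE 0.93, edgeR adjusted p = 0.97), and 4 of the 5 pericyte genes tested were below 0. Acta2 was at 19.3 and 86.8 CPM in WT pups 1 and 2 and at 15.7, 8.20 and 6.30 CPM in mutant pups 3, 4 and 5. It was called lower once WT pup 1 was left out, where the WT arm is the 1 library of pup 2. Rgs5 was detected in 11.7% of the cells, and whether pericyte transcripts from other cells take part in these values was not tested.

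Rgs16 (another regulator of G-protein signalling) was at 64.4 and 96.5 CPM in WT and 38.9, 37.9 and 26.2 CPM in mutant pups (-1.16, SE 0.21, edgeR adjusted p = 0.17). Hs6st2 (a heparan sulfate sulfotransferase) was at 12.9 and 18.3 CPM in WT and 40.8, 37.9 and 27.3 CPM in mutant pups (1.24, SE 0.27, edgeR adjusted p = 0.34). Rps19, a ribosomal protein gene, was at 423 and 499 CPM against 353, 291 and 310 CPM (-0.48, SE 0.13, edgeR adjusted p = 0.90). For all 3 genes the groups did not overlap, in a table where 5.02% of genes had an unadjusted p under 0.05. The genes were picked for their small p, which favours groups that lie apart. The share of all tested genes without overlap was not counted, so nothing is read from it here.

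The number of genes called changed with the pup left out. Without WT pup 1 the WT arm is 1 library, pup 2, assumed to vary like the mutant pups. The genes then called, all lower in the mutant pups, were led by the mast cell protease genes Mcpt4, Cpa3, Tpsb2 and Cma1, named here after their values were seen. The smooth muscle genes Acta2, Tagln and Myh11 were among them. Mcpt4 was at 294 CPM in WT pup 2 and between 0 and 1.29 CPM in the other 4 pups. Without WT pup 2 the WT arm is again 1 library, and the genes called were others, all higher. Without mutant pup 3, 2 genes were called lower, Rgs5 and Il6, without mutant pup 4 none was called, and without mutant pup 5 there were 8, of which Xist, Ddx3y, Eif2s3y, Uty, Kdm5d and Eif2s3x lie on the sex chromosomes and Rgs5 is another. The 2 WT pups against mutant pup 5, which share the sex transcripts, gave 14 genes, 7 higher and 7 lower, but the mutant arm is then 1 library, assumed to vary like the WT pups. Rgs5 and Rgs16 were each lower and called in 4 of the alternatives. These reuse the same pups and are not separate support, and those against pup 5 alone and without WT pup 1 leave 1 library in an arm. Rgs5 was called without mutant pup 3, without mutant pup 5, against pup 5 alone and with no filter, and its log2 fold change was -0.70 in thinned cells and -0.51 in cells with under 100 Col2a1 UMIs per 10000, where it was not called. Rgs16 was called without WT pup 1, with at least 3 UMIs of Cilp and Thbs4, against pup 5 alone and with no filter.

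**Figure D5:**
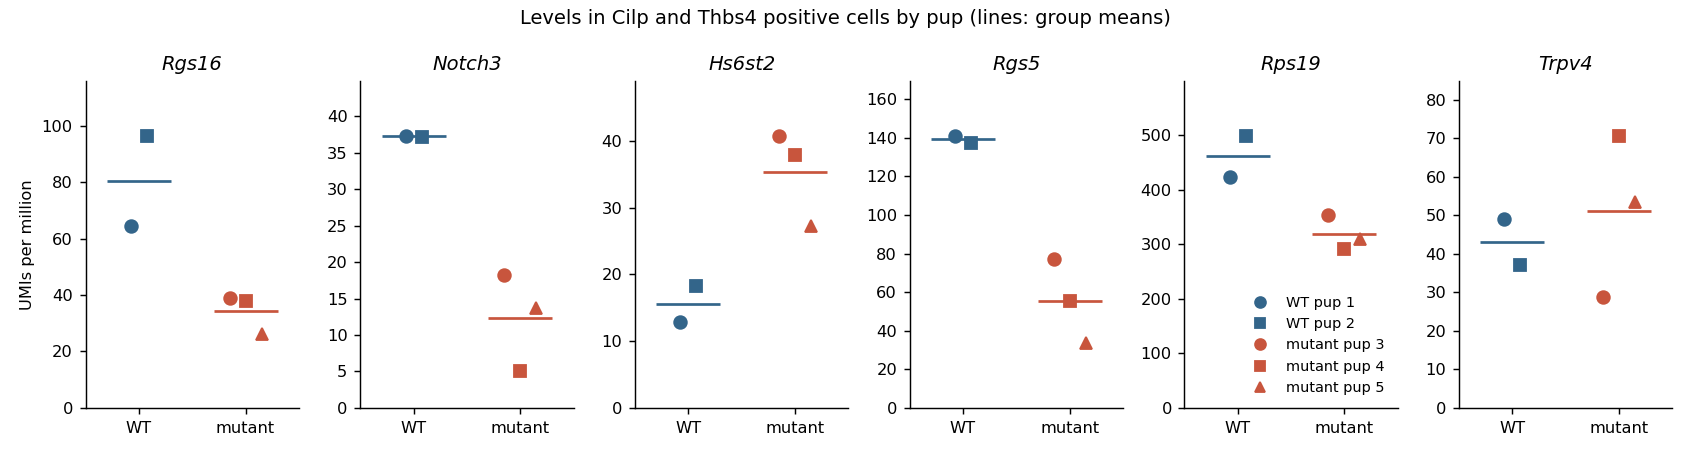
UMIs per 1000000 UMIs (CPM, vertical, from 0) in the Cilp and Thbs4 positive cells of each pup for the 5 genes with the smallest p and for Trpv4, with lines at the means of the 2 WT and 3 mutant pups. The 2 groups lie apart in the first 5 genes, which were picked for their small p and none of which passed the adjusted test, and overlap in Trpv4.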

How the data were processed

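Growth plate cells of 5 pups were captured by the authors on BD Rhapsody (1 library per pup) and quantified with the pipeline that the study's methods name, its version and annotation not given in the sources used here, with the mm10 genome named in the processing notes. The deposited values are raw UMI counts per gene and cell barcode, with no normalization. Cells with 200 to 6000 genes and at most 10% mitochondrial UMIs were kept (82516 of 84382). The population, the sets compared with it and the 24 gene lists were chosen with earlier results of these data known. Counts were summed per pup and set and tested with edgeR 4.0.16 (TMM, filterByExpr, robust quasi-likelihood fit, Benjamini-Hochberg at 0.05) in R 4.3.3, with the pup as a block between sets, since both sums came from the same animal. DESeq2 1.42.0 was an alternative. The tests were checked on simulated data. CPM in the text are UMIs of a gene per 1000000 UMIs of the sum. All listed genes could be named. Otherwise, between sets, genes with the 10 largest changes per direction were named, if past the threshold, in the same direction in 5 pups and at 50 CPM or more in the higher set, without mitochondrial genes and those of the rules. Between genotypes the 5 smallest p at 20 CPM or more were named. Thinning drew 3000 UMIs per cell (seed 1) and left out shallower cells. Doublets were not removed. Genotypes were compared as shares by exact permutation. Alternatives were other size factors, no filter, stricter limits, thinned cells, cells without other markers and each pup left out.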

Additional observations from a re-analysis of the deposited data

Results flagged for a closer look

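Myh11, the smooth muscle myosin heavy chain, was flagged in the comparison of the Cilp and Thbs4 positive cells with the Ucma-high cells. The sign of its difference was opposite in WT and mutant pups, but the mutant values lay near 0. The log2 fold change over all 5 pups was 1.157 (adjusted p = 0.046 by edgeR's quasi-likelihood test). Myh11 was higher in the Cilp and Thbs4 positive cells of both WT pups, at 4.51 against 1.47 CPM in pup 1 and 22.8 against 4.73 CPM in pup 2. In the 3 mutant pups it was at 0.628 against 1.95, 0 against 0.423 and 0 against 0.185 CPM in pups 3, 4 and 5. These values are at the floor of sums over 235, 176 and 142 Cilp and Thbs4 positive cells, so they cannot show a lower level. The Cilp and Thbs4 positive cells held 48 Myh11 UMIs in all, most of them in the WT pups. Whether the difference between the sets differed between the genotypes was not tested. Within the Cilp and Thbs4 positive cells alone, Myh11 was called lower in the mutant pups with no filter on low counts, and did not pass the filter with all 5 pups. It was also called lower without WT pup 1, where the WT arm is pup 2 alone.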

How the results depend on the processing

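Between genotypes, 0 genes were called with other size factors, with DESeq2, in thinned cells, without cells bearing markers of other types or in cells with under 100 Col2a1 UMIs per 10000 (the last chosen after the data were seen). With no filter on low counts 6 genes were called higher and 15 lower, with at least 3 UMIs of Cilp and Thbs4 1 was called lower, and the WT pups against mutant pup 5 gave 7 higher and 7 lower. Leaving out each pup gave 0 to 6 higher and 0 to 14 lower. The cause was not tested. The uncalled values near 0 changed sign. Tnc ranged from -0.1552 to 0.2855 with each pup left out (-0.0477 without mutant pup 4 and -0.0005 without mutant pup 5), and Trpv4 from -0.0774 without mutant pup 4 to 0.6129 without mutant pup 3. Aqp1 went to 0.0038 with DESeq2, 0.0039 with RLE size factors, 0.0186 without cells of other markers, 0.0173 in thinned cells, 0.0911 in cells with little Col2a1, and, with each pup left out, ranged from -0.1159 to 0.098 (0.0283 and 0.0696 without mutant pups 3 and 5). Dkk3 went to 0.0044 without cells of other markers, 0.0159 in cells with little Col2a1, and 0.0165 with at least 3 UMIs of each gene, and ranged from -0.2736 to 0.2004 with each pup left out. No paired analysis was possible because the labels number the pups 1 to 5 through both groups, so that no labelled number occurs in both.

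Between sets, Matn1 went to -0.18 and Matn3 to -0.16 against Prg4-high cells in cells with little Col2a1. Against Prg4-high cells DESeq2 called 754 higher and 507 lower, and thinned cells gave 718 lower. Leaving out each pup gave 1093 to 1262 higher and 1187 to 1398 lower against Tnmd-positive cells, 1024 to 1144 and 836 to 970 against Prg4-high cells, and 2666 to 2995 and 3214 to 3560 against Ucma-high cells. Without the pup as a block (no pairing), the counts were 1157 and 1036, 905 and 765, and 3145 and 3326 in the same order. The difference in share of cells lay between -0.245 and -0.123 percentage points when each pup was left out, and was negative under each alternative tried. The genotype comparison rests on 2 WT and 3 mutant pups, with 142 to 235 cells per pup.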
